A study of Homo sapiens with 12 samples.

Results

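The 10 genes described here encode the dual-specificity phosphatases DUSP1, DUSP2, DUSP4, DUSP5, DUSP6 and DUSP10, the Sprouty proteins SPRY1 and SPRY2, and the Sprouty-related proteins SPRED1 and SPRED2. They were chosen by name from the 26210 genes of the expression table, as negative-feedback regulators of mitogen-activated protein kinase (MAPK) signalling, and all 10 were found in it. RNA was sequenced in 12 libraries from human lymphoid cell lines, 2 per group. KM-H2, L1236 and L428 are untreated classical Hodgkin lymphoma (cHL) lines, which model the Hodgkin/Reed-Sternberg tumour cell. The non-Hodgkin controls were untreated Reh, a Pro-B lymphoblastic leukaemia line, and untreated Namalwa, a Burkitt's lymphoma line. The sixth group, Reh+PMA, was Reh treated with 2 ng/ml phorbol myristate acetate, an activator of protein kinase C that was used as an inflammatory stimulus. The duration of the treatment is not given for these libraries. The cHL lines were grown in IMDM and Namalwa and Reh in RPMI, so medium and disease cannot be told apart between these lines.

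MAPK cascades carry signals from receptors and from protein kinase C through Ras and Raf to the kinase ERK, and in parallel to p38 and JNK. ERK switches on genes in the nucleus, some of which encode the brakes of the same pathway. Dual-specificity phosphatases remove the activating phosphates from ERK, p38 or JNK. Sprouty and SPRED proteins act higher up, where they hold back Ras and Raf. In lymphoid cells such genes are commonly read as a record of recent MAPK activity, since many of them are induced by ERK itself.

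The promoters of 8 of the 10 genes were matched by symbol to a RefSeq promoter table (GRCh38.p14), and each entry was placed in GRCh37 by an exact match of its whole sequence. The entries of DUSP4 and DUSP5 were not used here. The 250 bases before the annotated start are shown for the gene that fell with PMA (DUSP1) and for 3 that rose (SPRY2, DUSP6 and DUSP10). Each is written 5′ to 3′ on the strand of its gene, with every match to a searched motif in capitals. The DUSP1 stretch lies at chr5:172198199-172198448, minus strand, that of SPRY2 at chr13:80915262-80915511, minus strand, that of DUSP6 at chr12:89746279-89746528, minus strand, and that of DUSP10 at chr1:221915432-221915681, minus strand.
DUSP1: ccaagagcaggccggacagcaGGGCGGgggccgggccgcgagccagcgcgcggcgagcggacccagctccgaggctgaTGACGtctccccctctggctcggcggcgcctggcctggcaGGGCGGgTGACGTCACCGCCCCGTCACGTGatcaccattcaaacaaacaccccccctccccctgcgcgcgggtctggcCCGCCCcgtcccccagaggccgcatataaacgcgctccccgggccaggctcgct
SPRY2: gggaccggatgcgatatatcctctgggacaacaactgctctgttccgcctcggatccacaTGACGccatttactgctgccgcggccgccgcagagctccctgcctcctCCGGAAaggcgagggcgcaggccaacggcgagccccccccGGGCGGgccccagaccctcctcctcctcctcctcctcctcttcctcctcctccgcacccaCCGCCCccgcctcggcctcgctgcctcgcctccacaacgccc
DUSP6: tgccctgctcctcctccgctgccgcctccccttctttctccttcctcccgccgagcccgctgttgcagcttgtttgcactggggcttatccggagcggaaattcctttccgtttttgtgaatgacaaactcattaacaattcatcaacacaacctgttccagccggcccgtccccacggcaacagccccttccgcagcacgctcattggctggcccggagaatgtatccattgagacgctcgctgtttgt
DUSP10: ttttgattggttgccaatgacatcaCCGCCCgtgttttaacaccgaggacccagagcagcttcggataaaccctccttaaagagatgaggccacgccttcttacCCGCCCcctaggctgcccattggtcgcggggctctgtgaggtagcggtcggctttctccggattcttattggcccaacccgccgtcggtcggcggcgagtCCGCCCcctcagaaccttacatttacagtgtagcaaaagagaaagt

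The motifs, sought on both strands, were AP-1 (TGANTCA), the cyclic AMP response element CRE (TGACGTCA), its core alone (TGACG, which overlaps every CRE), ETS (CCGGAA), the CArG box of the serum response element, Sp1 (GGGCGG) and the E-box (CACGTG). In windows of 300 bases, from 250 before to 50 after the start and using the most upstream entry of each gene, the CRE was present in DUSP1 alone among the 8 members, against 1.84% of 34796 promoters. In the DUSP1 promoter the CRE ran from base -125 to base -118 before the start, with 4 Sp1 matches and an E-box around it. The CRE core was found in DUSP1, SPRY2 and SPRED2 (24.5% of all promoters), and the E-box in DUSP1 and DUSP2 (7.2%). The ETS motif was present in SPRY2 (17.2% of all promoters), from base -142 to base -137. Sp1 motifs were found in 6 of the 8 (44.9%). At these entries no member held AP-1 (7.73%) or the CArG box (1.3%), and the DUSP6 window held none of the 7 motifs. Later entries of the same genes differed. The second entry of SPRED2 held 2 AP-1 matches, and the second entry of SPRY1 an ETS and 2 Sp1 matches. A match is a description of letters in a window and does not show binding.

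Expression was deposited as FPKM, fragments per kilobase of transcript relative to the mapped fragments of the library. Levels can thus be compared between genes of a library. Between libraries the comparison also depends on their make-up. Over the 12 libraries the FPKM values summed to 0.659 to 1.125 M, and the 20 highest genes held 26.4% to 50.2% of the sum. The spacing of the lowest values put the depth of the libraries at 3.53 to 21.3 M fragments, and 10835 to 12115 genes reached 1 FPKM. Libraries are named here by group and by the 0 or 1 that ends their column name. A feature that the labels do not give split them. SNORD95, a small nucleolar RNA, was listed at 16930 to 132700 FPKM in 5 libraries (both Reh+PMA libraries and library 1 of each cHL line) and at 0 in the other 7. All Reh and Namalwa libraries are of the latter kind, so between Reh and Reh+PMA this library difference and the treatment cannot be told apart directly. It could be estimated within the cHL lines, and the calls that change with it as a term are given. Cell-type markers were checked against the labels. Summed levels of 7 Hodgkin markers, among them TNFRSF8 (CD30), were 200.4 to 1585 FPKM in the cHL libraries and 3.03 to 16.6 in the untreated controls, whereas 8 B-lineage markers summed to 3.99 to 41.9 FPKM in the former and 949 to 1465 in the latter. In Reh, the precursor markers DNTT, RAG1 and RAG2 were expressed but VPREB1 was listed at 0. T-cell markers summed to 17.8 and 26.3 FPKM in KM-H2 and to at most 0.557 elsewhere, and erythroid and fibroblast markers to at most 0.373 and 4.85. Monocyte markers summed to 25.7 and 32.4 FPKM in Reh, nearly all of it MPO, and to at most 7.18 elsewhere.

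All 10 genes reached 1 FPKM in at least 2 libraries and were among the 14679 genes tested. Differences were tested with limma on log2(FPKM + 1). A gene was called at a Benjamini-Hochberg adjusted p under 0.05 and a difference of at least 1 on that scale, which understates the change of weakly expressed genes. Since the labels do not say that duplicate libraries came from separate cultures, the p-values measure the spread between duplicates, which may be technical.

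**Figure D1:**
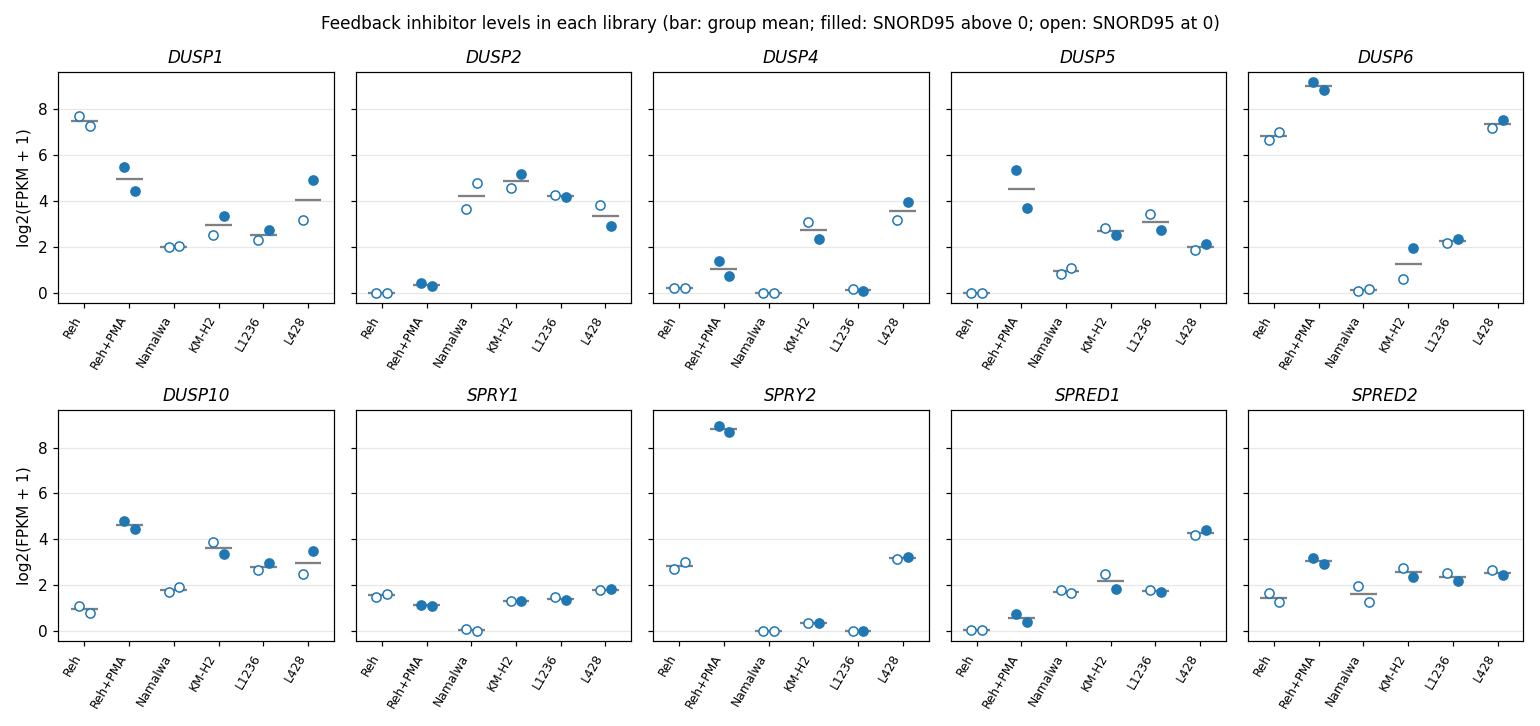
Level of each of the 10 genes, as log2(FPKM + 1), in the 12 libraries. Points are libraries (filled where SNORD95 was above 0, open where it was at 0), and grey bars are the means of 2. SPRY2 and DUSP6 reach their highest levels in Reh+PMA, whereas DUSP1 is highest in untreated Reh and SPRED1 in L428.

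Most of the feedback inhibitors differed between Reh+PMA and Reh, a comparison in which the library kind differed too. SPRY2, DUSP5, DUSP10, DUSP6 and SPRED2 rose, DUSP1 fell, and DUSP2, DUSP4, SPRY1 and SPRED1 did not pass the test. Among all genes tested, 10.5% were called higher and 11.8% lower in this comparison, against 5 and 1 of the 10 members. The median difference was 1.22 over the members and -0.03 over all genes. In bulk RNA, fewer cells expressing a gene and less RNA per cell cannot be told apart.

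SPRY2, a Sprouty protein that dampens signalling from receptor tyrosine kinases to Ras (GRCh37 chr13:80910111-80915261), showed the largest change with a pseudocount of 1. It stood at 5.47 and 6.97 FPKM in Reh and at 491 and 406 in Reh+PMA. The treated libraries lay far above every other library of the series, where the highest value was 8.25. The difference was 5.96 ± 0.19 (SE) on the log2 scale (limma, adjusted p = 5.18e-07), and 5.95 with the library kind as a term. About 16311 and 14341 fragments, estimated from the depth, lay behind the treated values.

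DUSP5, a nuclear phosphatase specific for ERK (chr10:112257665-112271291), was listed at 0 in both Reh libraries and at 39.8 and 11.9 FPKM in Reh+PMA. The treated duplicates were uneven, but both exceeded every untreated library, of which the highest was L1236 library 0 at 9.62. The difference was 4.52 ± 0.46 on the log2 scale (limma, adjusted p = 1.89e-04), and no fold is given against a group at 0. With a pseudocount of 0.1 it was 7.77, which exceeded the 6.15 of SPRY2 on that scale.

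DUSP10, which acts on p38 and JNK rather than ERK (chr1:221874766-221915431), went from 1.14 and 0.702 FPKM to 26.8 and 21.0. All 10 untreated libraries of the series lay at or below 13.8. The difference was 3.70 ± 0.34 (limma, adjusted p = 1.00e-04) and 3.45 with the library kind as a term.

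DUSP6, the cytoplasmic ERK phosphatase that is often used as a readout of ERK activity (chr12:89741012-89746278), was already high in Reh, at 98.9 and 128 FPKM, and reached 578 and 453 with PMA. It was the most abundant member in Reh+PMA on this per-length scale. The difference was 2.17 ± 0.38 (limma, adjusted p = 0.00317). Library 1 of the cHL lines, the kind of the Reh+PMA libraries, also held more DUSP6 than library 0, by 0.18 to 1.35 on the log2 scale, and the PMA difference was 1.54 with the library kind as a term (limma, adjusted p = 0.0205).

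SPRED2, a Sprouty-related inhibitor of Ras-ERK signalling (chr2:65537985-65659771), rose from 2.15 and 1.38 to 8.07 and 6.55 FPKM, and the groups did not overlap. The difference was 1.60 ± 0.29 (limma, adjusted p = 0.00348). In the cHL lines SPRED2 was lower by 0.24 to 0.38 in the libraries of the treated kind, and the PMA difference was 1.91 with that term.

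DUSP1, an immediate early phosphatase of p38, JNK and ERK (chr5:172195099-172198198), was the member that fell. It stood at 208 and 153 FPKM in Reh, the highest of the series, and at 43.8 and 20.4 in Reh+PMA. DUSP1 fell by 2.54 ± 0.56 on the log2 scale (limma, adjusted p = 0.0093). In each cHL line it was higher in the libraries of the treated kind, by 0.47 to 1.75, and with the library kind as a term it fell by 3.56. Without Reh library 0 or Reh+PMA library 1 the call was lost, with falls of 2.32 (limma, adjusted p = 0.0686) and 2.00 (limma, adjusted p = 0.0729).

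The remaining 4 genes stayed low. DUSP2, a nuclear phosphatase of haematopoietic cells (chr2:96808908-96811179), was listed at 0 in both Reh libraries and at 0.343 and 0.203 FPKM with PMA. SPRED1, which brings the Ras inhibitor neurofibromin to the membrane (chr15:38545037-38649450), was at 0.0144 and 0.0145 FPKM in Reh, about 1 fragment in each, and at 0.684 and 0.284 with PMA. DUSP4, a nuclear phosphatase of ERK and JNK, measured 0.131 and 0.151 FPKM in Reh and 1.56 and 0.634 with PMA. In these 3 genes the treated libraries exceeded the untreated ones, yet the differences of 0.35, 0.54 and 0.84 were not called with a pseudocount of 1. With a pseudocount of 0.1 they came to 1.87, 2.26 and 2.196 and were called (limma, adjusted p = 0.0179, 0.00434 and 0.0122). SPRY1, the other Sprouty (chr4:124317950-124324915), measured 1.81 and 2.08 FPKM in Reh and 1.21 and 1.14 with PMA, a difference of -0.44 that was below the fold threshold (limma, adjusted p = 0.0433).

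**Figure D2:**
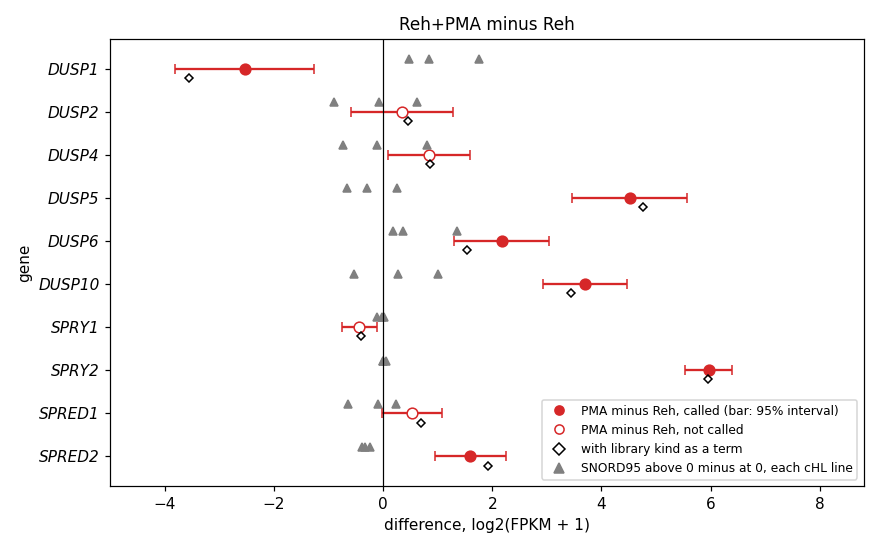
Difference of each gene between Reh+PMA and Reh on the log2(FPKM + 1) scale, with 95% intervals from limma (filled: called). Diamonds give the difference with the library kind as a term, and grey triangles the difference between the library kinds in each of the 3 cHL lines. SPRY2, DUSP5 and DUSP10 lie at 3.70 or above, whereas the library kinds differed by at most 1.75, in DUSP1.

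The rest of the pathway was followed with lists of related genes. Their counts stand against 10.5% of all genes called higher and 11.8% lower, and come from the fit without the library kind term. Of 9 tested genes known as ERK outputs, 7 rose with PMA and none fell, led by EGR1 (6.01 on the log2 scale), IER3 (4.67), PHLDA1 (4.53) and SPRY4 (3.36), and the median was 2.59. EGR1, an immediate early transcription factor, went from 0.138 and 0.0349 to 62.1 and 76.2 FPKM. Of 10 other feedback genes, 3 rose: ERRFI1, an inhibitor of the EGF receptor (3.78), SPRY4, and RASA1, a Ras GTPase-activating protein (1.47). CBL, with 0.99, was below the fold threshold. Among 14 components of the ERK cascade 4 rose, among them MAP2K1 (1.91), NRAS (1.82) and ARAF (1.02), and the median was 0.30. In the p38 and JNK cascade MAP2K3 rose (2.38) and MAPK12 fell (-1.70), out of 10. RASGRP1, a Ras activator that binds phorbol esters, fell by 1.45 and was the only one called of 4 RasGRP genes. Of 7 stress genes, 2 rose (GADD45A, 1.73, and HSPA1B, 1.38), and of 5 tested B-precursor markers 3 fell, including RAG1 and RAG2. Of 8 B-lineage markers 4 fell, including CD79B, and 1 rose (CD22), with a median of -0.93. Of 4 germinal centre markers 2 fell, of 7 Hodgkin markers 2 rose (CSF1R and IL21R), and of 2 tested monocyte markers 1 fell (MPO). The part of these markers in the members' changes was not tested.

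Between the cHL lines as a class and the controls, no member passed the test. With the line as the replicate, 3 cHL lines against 2 controls, limma called none of the 10, against 0.545% of all genes. At an unadjusted p under 0.05 there were 2, DUSP5 and DUSP10, against 13.5% of all genes. DUSP5 was higher by 2.09 (95% interval 0.69 to 3.50; limma, adjusted p = 0.229) and DUSP10 by 1.77 (0.51 to 3.03; limma, adjusted p = 0.256). The intervals of the other 8 included 0, the widest being that of DUSP6, from -6.31 to 6.61. Taking libraries instead of lines as replicates called 6 of the 10, against 24.6% of all genes, and 7 with the library kind as a term, against 24.4%.

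The controls themselves differed strongly. Namalwa exceeded Reh in DUSP2 and SPRED1 and was lower in DUSP1, DUSP6, SPRY1 and SPRY2, 6 of 10 members against 19.0% of all genes. DUSP6 was at 98.9 and 128 FPKM in Reh and at 0.0365 and 0.125 in Namalwa, where about 1.2 and 3.6 fragments lay behind it, and DUSP1 at 208 and 153 against 2.97 and 3.07. On the log2 scale Namalwa minus Reh was -6.72 for DUSP6 and -5.48 for DUSP1 (limma, adjusted p = 2.25e-06 and 8.56e-05). DUSP2 ran the other way, being listed at 0 in Reh and at 11.4 and 26.6 FPKM in Namalwa. A cHL level above the average of the controls can therefore lie below that of one of them, so the values of both are given for the members.

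Set against the average of Reh and Namalwa, L428 showed 9 members higher and none lower (16.2% and 13.8% of all genes), KM-H2 6 higher and 3 lower (16.8% and 13.5%) and L1236 3 higher and 3 lower (15.7% and 13.3%). With a pseudocount of 0.1 the L1236 count became 6 higher and 2 lower (19.5% and 16.8% of all genes), since SPRY1, SPRED1 and SPRED2 were then called and DUSP6 was not. With the library kind as a term the counts in KM-H2 and L1236 were the same, and L428 had 9 higher and 1 lower (15.7% and 13.2%), the latter DUSP1. Without L428 library 1 it had 7 higher and 1 lower (14.4% and 12.1%), again DUSP1, and DUSP5 and SPRY1 were no longer called. The medians were 1.55 in L428, 1.16 in KM-H2 and 0.71 in L1236, with medians over all genes from -0.01 to 0.00. These comparisons share their control libraries. DUSP2, DUSP5 and DUSP10 were called higher in each of the 3 lines, but the share of all genes for which this held was not computed. Scaling the libraries to equal totals moved the median of all genes in L428 by -0.19 and the share of calls that were higher from 53.8% to 42.1%, and 7 members then remained called in L428, without SPRY1 and SPRED2.

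**Figure D3:**
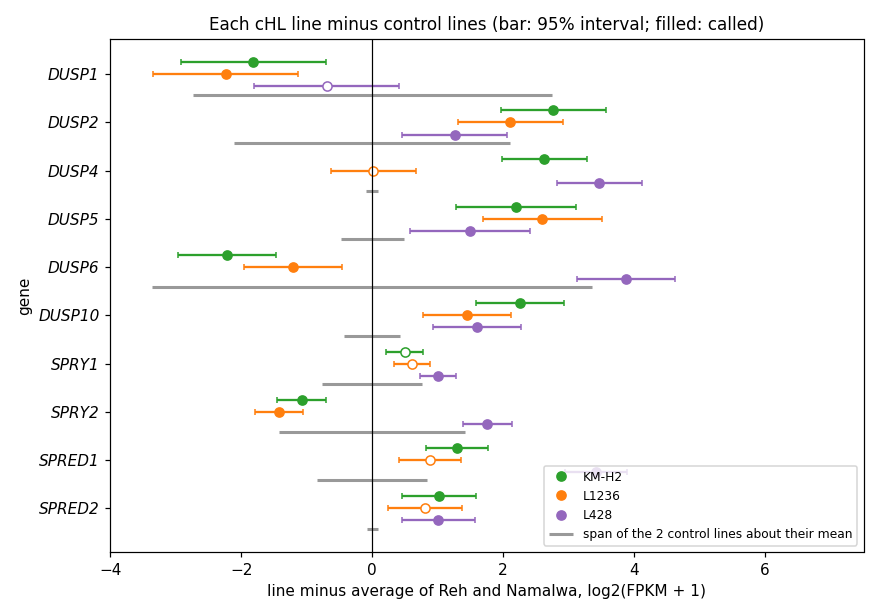
Difference of each gene between each cHL line and the average of Reh and Namalwa on the log2(FPKM + 1) scale, with 95% intervals from limma (filled: called). Grey bars show the span of the control lines about their average. DUSP6 and SPRY2 are lower than the average of the controls in KM-H2 and L1236 and higher in L428, and in KM-H2 and L1236 neither gene lies below the span of the control lines.

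DUSP10 was above both controls in every cHL library. It measured 13.8 and 9.20 FPKM in KM-H2, 5.35 and 6.67 in L1236 and 4.50 and 10.1 in L428, against at most 2.72 in Namalwa and 1.14 in Reh. The differences from the controls were 2.26, 1.44 and 1.60 on the log2 scale (limma, adjusted p = 2.38e-04, 0.0036 and 0.00194). The cHL lines did not reach the level of Reh+PMA, which exceeded their average by 1.499 (95% interval 0.87 to 2.13).

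DUSP5 was likewise above both controls in all cHL libraries, with 6.06 and 4.78 FPKM in KM-H2, 9.62 and 5.70 in L1236 and 2.60 and 3.28 in L428, against 0.778 and 1.13 in Namalwa and 0 in Reh. The differences were 2.195, 2.60 and 1.49 (limma, adjusted p = 0.00177, 6.77e-04 and 0.0137). The call in L428 was lost when L428 library 1 was left out. With only the cHL libraries at 0 for SNORD95 it held in L1236 alone, and with only those above 0 in none of the 3 lines, each line then resting on a lone library. The differences were 2.34 and 2.05 in KM-H2, 2.93 and 2.26 in L1236 and 1.37 and 1.62 in L428. Reh+PMA lay above the average of the cHL lines by 1.94 (1.08 to 2.80).

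DUSP2 separated Reh from all the other lines rather than the cHL lines from the controls. It measured 22.6 and 35.2 FPKM in KM-H2, 18.0 and 17.0 in L1236 and 13.0 and 6.55 in L428, a range that overlapped that of Namalwa. KM-H2 exceeded the average of the controls by 2.76, L1236 by 2.11 and L428 by 1.26, and the last of these calls was lost when either L428 library 0 or Namalwa library 0 was left out. Between KM-H2 and L428 it fell by 1.51 (limma, adjusted p = 0.0182), a call that was lost without KM-H2 library 1 or L428 library 1.

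DUSP4 (chr8:29190581-29208201) was expressed in KM-H2, at 7.51 and 4.11 FPKM, and in L428, at 7.93 and 14.6, and near 0 in L1236, at 0.121 and 0.0404. Namalwa was listed at 0. From KM-H2 to L1236 it fell by 2.61 (limma, adjusted p = 2.49e-04), and L428 exceeded L1236 by 3.45 (limma, adjusted p = 5.81e-05). It was the only member called between L1236 and KM-H2, where 26.6% of all genes were called. With the library kind as a term DUSP6 was called there too (1.00; limma, adjusted p = 0.0246; 27.7% of all genes).

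DUSP6 set L428 apart. It was at 142 and 184 FPKM in L428, which did not differ from untreated Reh beyond the spread (0.52, 95% interval -0.35 to 1.39), and at 0.492 and 2.81 in KM-H2 and 3.49 and 4.09 in L1236. L428 exceeded KM-H2 by 6.09 ± 0.38 (SE) and L1236 by 5.09 ± 0.38 on the log2 scale (limma, adjusted p = 3.81e-06 and 1.21e-05). KM-H2 library 0 held about 6.3 fragments of the gene. The differences from the average of the controls were -2.22 in KM-H2 and -1.21 in L1236, although both lines lay above Namalwa, and 3.88 in L428. The L1236 call was lost with either L1236 library left out and with a pseudocount of 0.1, under which the difference was -0.20 (limma, adjusted p = 0.799).

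SPRY2 was also highest in L428 among the cHL lines. L428 had 7.90 and 8.25 FPKM, close to the 5.47 and 6.97 of Reh, KM-H2 had 0.273 and 0.267, some 2.2 and 3.3 fragments, and L1236 and Namalwa were listed at 0. The differences of L428 from KM-H2 and L1236 were 2.84 and 3.18 (limma, adjusted p = 5.58e-06 and 3.01e-06). Reh+PMA exceeded the average of the cHL lines by 7.63 (7.28 to 7.98), and DUSP6 did so by 5.38 (4.67 to 6.09).

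SPRED1 was highest in L428, with 16.9 and 20.1 FPKM against 4.55 and 2.57 in KM-H2, 2.45 and 2.24 in L1236, 2.43 and 2.10 in Namalwa and under 0.02 in Reh. Here L428 exceeded every other group, including Reh+PMA. The difference was 2.13 from KM-H2 and 2.54 from L1236 (limma, adjusted p = 1.46e-04 and 5.87e-05). KM-H2 exceeded the controls by 1.29, a call lost without KM-H2 library 0. In this gene the cHL lines lay above Reh+PMA, whose difference from their average was -2.17 (-2.62 to -1.72). Thus 3 members were higher in L428 than in KM-H2 and 1 lower (26.6% of all genes called either way), and 4 were higher in L428 than in L1236 (21.9%), or 5 with the library kind as a term (22.7%). With equal totals the same numbers of members were called, while the share of higher calls over all genes went from 48.7% to 36.8% against KM-H2 and from 50.3% to 33.0% against L1236.

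SPRED2 varied little, with 3.52 to 5.69 FPKM in the cHL libraries and 1.38 to 2.88 in the controls. Its differences from the controls were 1.02 in KM-H2, 0.81 in L1236 and 1.01 in L428, so the calls in KM-H2 and L428 sat on the threshold and were lost under 6 and 7 of 23 alternatives. SPRY1 lay between 1.43 and 2.49 FPKM in all cHL libraries and in Reh and was at 0.0466 and 0 in Namalwa. It was called in L428 with a difference of 1.00, again at the threshold, and lost the call under 6 alternatives. With a pseudocount of 0.1 it was called higher in all 3 lines, by 1.63 in KM-H2, 1.81 in L1236 and 2.37 in L428, against 0.49, 0.61 and 1.00 with a pseudocount of 1.

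DUSP1 differed from the average of the controls by -1.81 in KM-H2 and by -2.24 in L1236, yet lay above Namalwa. KM-H2, at 4.71 and 9.23 FPKM, L1236, at 3.84 and 5.70, and L428, at 8.03 and 29.5, all lay above the 2.97 and 3.07 of Namalwa. The calls in KM-H2 and L1236 were lost without library 0 of the line, with differences of -1.39 (limma, adjusted p = 0.129) and -2.00 (limma, adjusted p = 0.0511). In L428 the difference was -0.70 and not called (limma, adjusted p = 0.276), but it was called lower with the library kind as a term (-1.21; limma, adjusted p = 0.0293) and without L428 library 1 (-1.57; limma, adjusted p = 0.0306). L428 minus L1236 was 1.54 in either fit, not called without that term (limma, adjusted p = 0.0682) and called with it (limma, adjusted p = 0.0162). The duplicates of L428 were the most uneven. L428 library 1, in which DUSP1 was at 29.5 FPKM, also had the highest summed level of 7 stress genes, 504 FPKM against 110 to 250 in the other libraries, and was the only cHL library with MPO above 0 (5.35 FPKM). The part of these genes in the DUSP1 value was not tested.

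When the 6 groups were ordered by mean log2(FPKM + 1), Reh+PMA came first in DUSP5, DUSP6, DUSP10, SPRY2 and SPRED2, L428 in DUSP4, SPRY1 and SPRED1, KM-H2 in DUSP2 and Reh in DUSP1. Neighbours in this order whose 95% interval included 0 did not differ beyond their spread. That held for DUSP6 and SPRY2 between L428 and Reh, for each step of DUSP10 from KM-H2 to L428 to L1236, and for each step of DUSP2 from KM-H2 to L1236, Namalwa and L428, although the ends of that order, KM-H2 and L428, did differ. By mean FPKM, Namalwa (19.0) stood above L1236 (17.5) in DUSP2. For DUSP10 the interval of L1236 minus KM-H2 ran from -1.59 to -0.040. In SPRED2 Reh+PMA did not differ from KM-H2 beyond the spread (0.50, -0.15 to 1.15), nor in SPRY1 any neighbours among L428, Reh, L1236, KM-H2 and Reh+PMA. Groups further apart in SPRY1 did differ. L428 exceeded KM-H2 by 0.51 (0.19 to 0.83) and L1236 by 0.40 (0.07 to 0.72), and Reh+PMA minus Reh was -0.44 (-0.76 to -0.12). In DUSP1 the step from Reh to Reh+PMA was the only one whose interval left out 0.

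The other pathway genes were compared with the controls in the same way, against the shares of all genes given for each line. Of the 9 tested ERK outputs, 4 were higher and 1 lower in KM-H2 than in the controls, 2 and 1 in L1236 and 3 and 1 in L428. IER3 was higher in all of them (2.98, 1.96 and 2.51), with 10.5 to 31.6 FPKM in the cHL libraries against 0.545 to 5.16 in the controls. EPHA4, a receptor tyrosine kinase, differed by -1.64, -1.64 and -1.63, but was near 0 in Reh (0.0495 and 0.05 FPKM) as in the cHL lines and expressed only in Namalwa (6.43 and 10.6) among these untreated lines. PHLDA1 was higher in KM-H2 (2.48) and L428 (2.25), with -0.17 in L1236. Among the other feedback genes, 4 of 10 were higher and 1 lower in KM-H2, 1 higher in L1236, and 4 higher and 1 lower in L428. DUSP16, a JNK and p38 phosphatase, was higher in each (1.45, 2.27 and 1.10). DUSP9, an ERK phosphatase, was higher in KM-H2 (2.61) and L428 (1.15) and listed at 0 in L1236 as in the controls. CBL was lower in KM-H2 (-1.13) and higher in L428 (1.73), with 0.81 in L1236. In the ERK cascade 3 of 14 were higher and 2 lower in KM-H2, 4 and 1 in L1236, and 4 and 0 in L428. The scaffold KSR1 was higher in L428 (2.99) and KM-H2 (1.99), with 0.033 in L1236. Tested between the lines, 1 ERK output was higher and 3 lower in L428 than in KM-H2, none higher and 3 lower in L1236 than in KM-H2, and 2 higher and none lower in L428 than in L1236, all of 9. With lines as replicates no gene of these 3 lists was called, and among the 4 RasGRP genes RASGRP2 was called lower (-4.50; limma, adjusted p = 0.0478).

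Likeness was computed for the 8 members whose group means spanned at least 2 on the log2 scale, and is given for 7. The tested genes with the most similar pattern over the 12 libraries were, for SPRY2, FZD8, MED17 and BCL11B (Pearson r = 0.978, 0.978 and 0.974) and, for DUSP6, LOC101060091, SLC25A24 and KIAA0753 (0.973, 0.972 and 0.965). DUSP2 ran closest to FOCAD, PI4K2A and TESC (0.987, 0.984 and 0.979). For SPRED1 they were SMAP2, MTURN and SYNGR2 (0.972, 0.958 and 0.950), for DUSP1 MPO, LOC100130298 and LINC00920 (0.970, 0.953 and 0.948), for DUSP10 ID2, FAF2 and CSGALNACT2 (0.947, 0.929 and 0.926), and for DUSP5 STK38L, HARS and IER5 (0.939, 0.938 and 0.931). Duplicates of a line are not independent points, and these genes were picked as the highest of the 14679 tested.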

How the data were processed

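Gene expression was measured by RNA-Seq of ribosome-depleted, strand-specific total RNA in 12 libraries from 5 human cell lines, 2 libraries per group. The authors deposited FPKM values per gene. Their processing notes name TopHat2 2.0.11, Cuffnorm 2.2.1, bedtools and hg19, and the annotation is not given in the sources used here. No read counts were used, so depth was estimated from the steps between low FPKM values of 1588 genes with a single transcript. FPKM values are relative to each library's total, and 5 libraries listed SNORD95 above 0.

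Columns were tied to groups by name. Their endings, 0 and 1, do not match the labels' replicate numbers 1 and 2, so no column was tied to a numbered replicate. Values were compared with limma 3.58.1 in R 4.3.3 on log2(FPKM + 1) over 14679 genes with at least 1 FPKM in at least 2 libraries, with a mean-dependent prior. All 6 groups shared an estimate of the spread with 6 residual degrees of freedom. That estimate averages unlike groups. Over the genes tested, the SD of the log2 difference between duplicates was 0.85 in KM-H2, 0.87 in L1236 and 0.95 in L428, whose duplicates were of different library kinds. It was 0.39 in Reh, 0.58 in Reh+PMA and 0.51 in Namalwa. Intervals between cHL lines may therefore be too narrow. For the cHL lines as a class, the means of 5 lines were compared, with 3 residual degrees of freedom. Adjusted p-values are Benjamini-Hochberg values over all genes tested. The steps were tested on simulated data. All 10 members are named, and up to 4 genes of each related list, those with the largest absolute difference. A gene that this names in 1 cHL line is given in all 3. Some genes that this rule names, and the likeness of DUSP4, are not reported here. Motifs were exact matches. Gene coordinates are from GENCODE v44 lifted to GRCh37. The members, lists and tests were chosen with earlier results of these data known. Alternatives were another pseudocount and filter, other scalings, no trend, no fold minimum, each library or line left out, and terms for library kind and column ending.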

Additional observations from a re-analysis of the deposited data

Results flagged for a closer look

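For 2 genes, cHL lines moved in opposite directions from the same controls, and the difference between the lines was itself called by limma. DUSP6 differed by 6.09 ± 0.38 (SE) on the log2(FPKM + 1) scale between L428 and KM-H2 and by 5.09 ± 0.38 between L428 and L1236, being -2.22 in KM-H2, -1.21 in L1236 and 3.88 in L428 relative to the average of Reh and Namalwa. SPRY2 differed by 2.84 ± 0.19 between L428 and KM-H2 and by 3.18 ± 0.19 between L428 and L1236, being -1.08, -1.42 and 1.76 relative to the controls. Both libraries of L428 exceeded all libraries of the other cHL lines in either gene. The direction relative to the controls depends on which control is used, since DUSP6 in KM-H2 and L1236 lay above Namalwa and below Reh, and with a pseudocount of 0.1 its difference in L1236 was -0.20 and not called. SPRY2 in L1236, like Namalwa, was listed at 0, KM-H2 was at 0.273 and 0.267 FPKM, and L428 differed from Reh by 0.34 (95% interval -0.09 to 0.77). The size of the difference between the cHL lines does not use the controls, whereas its SE and call use the spread shared by all groups.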

How the results depend on the processing

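The count of members called stayed within 1.5 times its value under most settings. For the cHL lines as a class it went from 0 to 6 with libraries as replicates and to 7 with the library kind added. It stayed at 0 with a library left out. Leaving out Reh or Namalwa left a lone control line, so no count is read from those fits. Without KM-H2, L1236 or L428 as a line, 0 of 14679 genes were called, so the member count could only be 0. It went from 9 to 5 in KM-H2 with the libraries above 0 for SNORD95 alone (all genes, 30.4% to 31.2%), from 9 to 5 in L428 with those at 0 alone (30.0% to 26.0%), each line then resting on a lone library assumed to vary like the other groups, and from 1 to 2 in L1236 minus KM-H2 with a pseudocount of 0.1, equal totals, a replicate block by column ending, the library kind term or KM-H2 library 1 left out (26.6% to between 24.6% and 31.0%). No paired analysis by the labels' replicate numbers was possible because the columns do not carry them. The block by column ending was chosen after seeing the data, as were the settings on library kind, and that pairing changed no other count by over 1.5 times. Deviations of libraries with the same ending correlated at -0.04 to 0.68 between groups, and at 0.30 to 0.68 among the cHL lines, so the endings did not pair all groups.

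Leaving out each library gave, with the range over all genes in brackets, 5 to 6 members for PMA (14.2% to 22.9%), 6 to 9 for KM-H2 (29.2% to 31.9%), 4 to 6 for L1236 (26.1% to 29.4%) and 7 to 9 for L428 (26.5% to 33.6%) against the controls, 3 to 6 for L428 minus KM-H2 (23.0% to 29.8%), 1 to 2 for L1236 minus KM-H2 (23.2% to 26.9%), 4 to 5 for L428 minus L1236 (18.3% to 22.7%), 6 for Namalwa minus Reh (14.9% to 19.1%) and 0 for the cHL class (0.184% to 0.599%). Over all genes, the calls of the cHL class ranged from 0 to 3614, against 80, and those of PMA from 2082 to 4675, against 3265. Without a fold minimum they came to 6920 in KM-H2, 6662 in L1236 and 6882 in L428.

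Of 2030 alternative values of single members, 1924 kept their direction and side of the threshold, and 22 turned, none of them called. Many of these values could not turn. Leaving out a library outside a comparison, or changing only the filter, trend or fold minimum, leaves its difference as it was. The 1924 are therefore not a measure of how stable the directions are. In the cHL class DUSP1 (1.16) and DUSP2 (-0.062) turned without Reh. There DUSP6 turned without Namalwa (-3.21) or L428 (-1.71), and with libraries as replicates and the kind term or only libraries at 0 for SNORD95 (-0.17 in both), and ran from -0.075 to 0.38 with each library left out. SPRY2 turned without Reh (1.18), L1236 (0.34) or KM-H2 (0.17), and SPRY1 without Namalwa (-0.063). Against the controls, DUSP4 in L1236 ran from -0.038 without its library 0, or with libraries above 0 alone, to 0.070, and DUSP1 in L428 from -1.57 to 0.18, the latter also with libraries above 0 alone. In L428 minus KM-H2, SPRED2 ran from -0.20 to 0.18 with each library left out (0.11 without L428 library 1). In L428 minus L1236, DUSP10 was -0.14 with equal totals and ran from -0.34 to 0.67 with each library left out, and SPRED2 was -0.079 with equal totals. In Namalwa minus Reh, SPRED2 ran from -0.18 to 0.51 (-0.039 without Reh library 1). Causes were not tested. Depth limits low values, which rest on a few fragments, and the limit differs between libraries. In the shallow KM-H2 libraries SPRY2 at 0.273 and 0.267 FPKM rested on about 2.2 and 3.3 fragments. In L1236 library 1 DUSP4 at 0.0404 FPKM rested on about 4.8.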
